A study of Mus musculus with 6 samples.

Results

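DNA repair and Fanconi genes were followed across Lpin2 knockout (KO) and wild-type (WT) RAW-D cells with and without LPS. The list named 34 genes, and the 32 with a probe set under that symbol were measured among 19505 genes with a symbol. Rad54b and Xrcc2 were not matched and are not described further. Where a gene had several probe sets, the one with the highest mean signal was taken. They were sorted by textbook role into 9 recombination genes, 8 Fanconi genes, 6 excision repair genes, 4 end-joining genes, 4 checkpoint kinase genes and the mismatch repair gene Msh6.

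RAW-D is a subclone of the mouse macrophage line RAW264.7 that readily forms osteoclasts. The groups were KO cells with LPS (clones #1 and #2, 1 array each), WT cells with LPS (1 array), untreated KO cells (the same clones, 1 array each) and untreated WT cells (1 array). LPS, a bacterial cell wall component sensed by TLR4, was given at 200 ng/mL for 4 h, and the study asked how loss of lipin2, a phosphatidate phosphatase, alters the response. The KO lines came from CRISPR/Cas9 and HDR plasmids, puromycin selection and isolation of single clones, while the sources do not say whether the WT cells were selected or cloned, so that clone history and genotype cannot be told apart.

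Repair pathways differ in the lesion they handle and in when they act. Homologous recombination copies the sister chromatid to mend broken DNA and collapsed forks, and the Fanconi pathway unhooks cross-links between the strands so that recombination can finish the work. Both are tied to DNA replication, and many of their genes are known to be transcribed mostly in dividing cells. Base and nucleotide excision repair remove damaged bases or short stretches from 1 strand, and end joining seals breaks without a template. These are held to be available throughout the cell cycle.

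Signals are log2 values as deposited. Background was taken as the 95th percentile of the negative controls (9.12 to 9.45 by array), which 28.7% to 31.4% of all genes exceeded, and a gene at or under it on all arrays of a group is termed dim there. Lpin2 itself was dim on all arrays, at 7.52 and 7.98 in KO cells with LPS and 6.84 in WT cells with LPS, and at 7.97 and 8.42 in untreated KO cells and 7.21 in untreated WT cells, so its signal does not check the genotype. Of 10 genes that LPS is known to induce (Tnf, Il1b, Cxcl2 and others, chosen with earlier results known), all 10 were called higher with LPS in KO cells, by 2.43 to 11.75 on the log2 scale. In WT cells all 10 were also higher with LPS, but only by 0.23 to 2.48, and none passed the test. Of the 9 macrophage markers measured, 7 were above background in every group, Fcgr1 in all but untreated WT cells, and Mertk was dim throughout, while the 7 lymphocyte markers and the 7 markers of fibroblasts and epithelium were dim on all arrays. With 1 WT array per treatment the error of each fit comes from the KO clones, on the assumption that WT cultures vary as much. By exact permutation, 2 arrays against 1 would reach no p below 0.333. Per the labels, 5 arrays were summarized at the exon level and the untreated WT array at the gene level.

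Promoters of the genes on which the results turn are shown first, from RefSeq on GRCm38.p6. Each run is the 250 bases before the annotated start site, 5′ to 3′ on the gene's strand, with matches to an E2F motif or to CCAAT on either strand in capitals. They belong to the 2 recombination and 2 Fanconi genes, and to the end-joining gene, with the largest called differences with LPS among genes that had an entry.

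Rad54l (chr4:116123691-116123940, minus strand, 1 of 2 annotated starts): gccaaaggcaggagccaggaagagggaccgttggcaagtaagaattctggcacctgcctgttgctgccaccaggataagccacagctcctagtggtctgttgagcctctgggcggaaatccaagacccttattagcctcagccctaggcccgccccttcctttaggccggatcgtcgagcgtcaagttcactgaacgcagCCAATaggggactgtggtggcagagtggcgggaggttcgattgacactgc

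Brca2 (chr5:150522371-150522620, plus strand): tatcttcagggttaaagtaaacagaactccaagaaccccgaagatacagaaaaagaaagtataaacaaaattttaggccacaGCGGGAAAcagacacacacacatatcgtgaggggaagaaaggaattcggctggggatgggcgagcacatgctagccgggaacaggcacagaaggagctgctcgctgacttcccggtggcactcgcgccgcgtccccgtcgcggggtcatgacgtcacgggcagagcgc

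Fanci (chr7:79392088-79392337, plus strand): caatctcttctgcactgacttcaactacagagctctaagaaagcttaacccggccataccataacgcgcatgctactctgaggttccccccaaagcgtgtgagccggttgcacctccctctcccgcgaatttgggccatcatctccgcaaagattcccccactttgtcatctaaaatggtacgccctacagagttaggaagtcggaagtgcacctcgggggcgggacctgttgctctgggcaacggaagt

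Fanca (chr8:123318577-123318826, minus strand): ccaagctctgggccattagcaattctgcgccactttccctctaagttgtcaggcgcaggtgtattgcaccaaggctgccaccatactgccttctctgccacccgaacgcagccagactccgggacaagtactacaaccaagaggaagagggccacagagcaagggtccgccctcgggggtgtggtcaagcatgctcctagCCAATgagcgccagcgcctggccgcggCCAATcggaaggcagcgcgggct

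Xrcc5 (chr1:72307171-72307420, plus strand): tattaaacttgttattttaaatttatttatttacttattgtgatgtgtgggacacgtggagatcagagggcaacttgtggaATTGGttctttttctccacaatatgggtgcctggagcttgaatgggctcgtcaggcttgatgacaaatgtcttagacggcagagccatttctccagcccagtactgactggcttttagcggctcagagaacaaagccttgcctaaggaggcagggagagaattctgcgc

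E2F proteins are transcription factors that switch on genes for DNA synthesis. Of the 32 genes, 28 had a promoter window (250 bases before to 50 after the start site). The E2F letters TTTCCCGC, TTTGGCGC, TTTCGCGC or TTTGCCGC stood on either strand in 6 of the 28 (21.4%), against 3.38% of the 15691 genes of the array with a window. All 6 matches were TTTCCCGC. They were found in 3 of 15 recombination and Fanconi genes (20%) and 1 of 8 excision and end-joining genes (12.5%). The pentamer CCAAT was present in 18 of 28 windows (64.3%), against 42.2% of all, and the letters TTTGAA of the CHR element in 1 of 28 (3.57%), against 17.8% of all. No match overlapped one to another motif. These are matches of letters, not measured binding. Besides Msh6, whose match lay 16 bases after the start, the matches stood in the 40-base stretches below, with the motif in capitals.

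Brca2 (chr5:150522437-150522476, plus strand): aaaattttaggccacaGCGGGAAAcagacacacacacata

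Bard1 (chr1:71103158-71103197, minus strand): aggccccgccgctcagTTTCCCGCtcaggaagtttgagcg

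Fancg (chr4:43010330-43010369, minus strand): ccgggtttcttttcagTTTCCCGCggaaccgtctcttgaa

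Chek2 (chr5:110839815-110839854, plus strand): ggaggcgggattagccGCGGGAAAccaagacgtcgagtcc

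Xrcc6 (chr15:82016307-82016346, plus strand): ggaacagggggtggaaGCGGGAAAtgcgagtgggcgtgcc

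Among these 5 genes, Brca2, Bard1, Chek2 and Xrcc6 were called lower in KO than in WT cells with LPS and Fancg was not, whereas Rad54l and Fanci, whose windows hold none of the E2F letters, had 2 of the 3 largest differences.

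With LPS, KO cells had less signal than WT cells for most of these genes. Of the 32, 20 were called lower and 0 higher (limma, adjusted p under 0.05), against 6.66% of all genes called lower and 4.62% called higher. The median difference, KO minus WT, was -1.86 on the log2 scale, and over all genes it was 0. The WT array lay above both KO arrays for 30 of the 32, against 40.1% of all genes, and between them for Lig4 and Xpa. By size of difference, 16 of the 32 were among the 500 lowest genes of the array and 21 among the 1000 lowest, though none was among the 100 lowest. These were bulk cultures, in which fewer cells expressing a gene and less of its RNA per cell cannot be told apart.

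**Figure D1:**
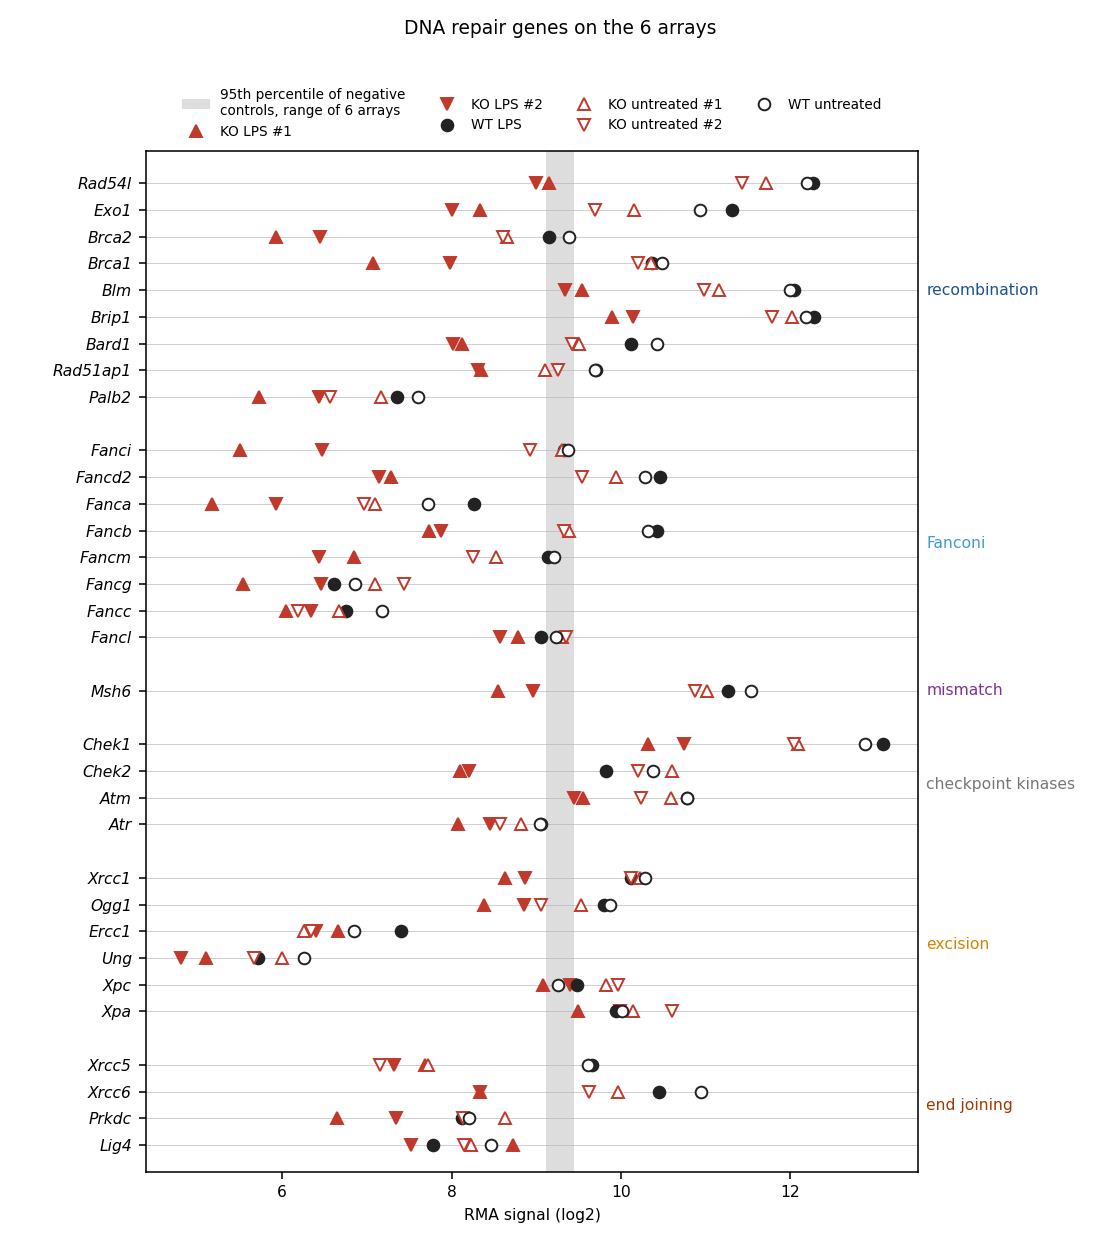
Log2 RMA signal of the 32 genes (rows, grouped by role and sorted by their difference with LPS) on the 6 arrays, with KO clones as triangles and WT as circles, filled with LPS and open untreated. The grey band is the range over arrays of the 95th percentile of the negative controls. For most recombination genes the filled triangles stand apart on the left, at 9.15 and 9.0 for Rad54l against 12.27 in WT cells with LPS.

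Of the homologous recombination genes, 8 of 9 were called lower in KO cells with LPS, with a median difference of -2.60. Rad54l, a motor protein of strand invasion, had log2 signals of 9.15 and 9.0 in KO clones and 12.27 in WT cells with LPS, against 11.72 and 11.43 in untreated KO clones and 12.20 in untreated WT cells. The nuclease gene Exo1, which resects broken ends, had 8.34 and 8.0 in KO clones and 11.31 in WT cells with LPS, against 10.15 and 9.70 in untreated KO clones and 10.93 in untreated WT cells. In both genes the LPS-treated clones were below every other array. KO minus WT with LPS was -3.19 ± 0.22 (SE) for Rad54l (adjusted p = 0.00113, at least 7.13-fold lower) and -3.14 ± 0.27 for Exo1 (adjusted p = 0.00211, at least 3.66-fold lower). These bounds set the dim KO signal at the negative control percentile, and the adjusted p tests the signals as measured.

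Brca1 and Brca2 encode tumor suppressors needed for homologous recombination. Brca1 had signals of 7.07 and 7.98 in KO clones and 10.37 in WT cells with LPS, against 10.35 and 10.20 in untreated KO clones and 10.49 in untreated WT cells. Its difference with LPS was -2.85 ± 0.38 (adjusted p = 0.00786, at least 1.91-fold lower). Brca2 had 5.92 and 6.44 in KO clones and 9.15 in WT cells with LPS, against 8.65 and 8.61 in untreated KO clones and 9.39 in untreated WT cells, with a difference of -2.97 ± 0.26 (adjusted p = 0.00216). As the Brca2 signal in WT cells was itself close to background, no bound above 1-fold could be given. For both genes the WT and untreated arrays lay close together, and the LPS-treated clones lay apart from them.

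The helicase genes kept a signal above background with LPS in KO cells too, Brip1 in both clones and Blm in clone #1. Brip1, the helicase that binds BRCA1, had 9.89 and 10.14 in KO clones and 12.28 in WT cells with LPS, against 12.02 and 11.78 in untreated KO clones and 12.19 in untreated WT cells. Blm, the Bloom syndrome helicase that dissolves joined DNA molecules, had 9.54 and 9.34 in KO clones and 12.04 in WT cells with LPS, against 11.16 and 10.98 in untreated KO clones and 12.00 in untreated WT cells. In both genes the WT array with LPS lay above both clones, as it did for 40.1% of all genes. With LPS, Brip1 was 4.81-fold lower (-2.27 ± 0.22, adjusted p = 0.00285) and Blm 6.06-fold lower (-2.60 ± 0.21, adjusted p = 0.00155) in KO cells.

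Bard1, the ring-finger partner of BRCA1, had 8.12 and 8.02 in KO clones and 10.12 in WT cells with LPS, against 9.50 and 9.42 in untreated KO clones and 10.43 in untreated WT cells. Rad51ap1, which aids the pairing of strands, had 8.35 and 8.31 in KO clones and 9.71 in WT cells with LPS, against 9.10 and 9.26 in untreated KO clones and 9.70 in untreated WT cells. Both were called lower in KO cells with LPS, by at least 1.61-fold for Bard1 (-2.06 ± 0.19, adjusted p = 0.00233) and at least 1.21-fold for Rad51ap1 (-1.38 ± 0.19, adjusted p = 0.00898). Palb2, the bridge between BRCA1 and BRCA2, was the only recombination gene not called. It was dim on all 6 arrays, with a difference of -1.28 ± 0.38 (adjusted p = 0.0991).

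Fanconi genes were split, with 5 of 8 called lower in KO cells with LPS and a class median of -2.56. FANCD2 and FANCI form the pair that is monoubiquitinated at a cross-link. Fancd2 had 7.28 and 7.14 in KO clones and 10.46 in WT cells with LPS, against 9.94 and 9.54 in untreated KO clones and 10.29 in untreated WT cells. Fanci had 5.5 and 6.47 in KO clones and 9.33 in WT cells with LPS, against 9.31 and 8.93 in untreated KO clones and 9.37 in untreated WT cells. In both genes the LPS-treated clones were the 2 lowest arrays by more than 2 log2 units. The difference with LPS was -3.24 ± 0.24 for Fancd2 (adjusted p = 0.0013, at least 2.03-fold lower) and -3.35 ± 0.41 for Fanci (adjusted p = 0.00626, no bound above 1-fold), the largest of the 32.

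The core complex that attaches the ubiquitin includes FANCA, FANCB, FANCC, FANCG, FANCL and FANCM, and 3 of these 6 genes were called. Fancb had 7.73 and 7.88 in KO clones and 10.43 in WT cells with LPS, against 9.39 and 9.33 in untreated KO clones and 10.32 in untreated WT cells (-2.62 ± 0.19 with LPS, adjusted p = 0.00127, at least 1.99-fold lower). Fancm, whose product is the DNA-binding anchor of the complex, had 6.85 and 6.43 in KO clones and 9.14 in WT cells with LPS, against 8.53 and 8.25 in untreated KO clones and 9.21 in untreated WT cells (-2.50 ± 0.26, adjusted p = 0.00346). Fanca was dim on all arrays, yet was called, with 5.17 and 5.92 in KO clones and 8.26 in WT cells with LPS, against 7.10 and 6.96 in untreated KO clones and 7.72 in untreated WT cells (-2.72 ± 0.33, adjusted p = 0.00598). It was the only one of the 20 called genes that was dim in both groups. Fancm, like Brca2 and Fanci, gave no bound above 1-fold. Their WT signals with LPS lay under the background of the LPS-treated clones (9.44 and 9.43).

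Fancl, the ubiquitin ligase of the complex, had 8.78 and 8.57 in KO clones and 9.06 in WT cells with LPS, against 9.30 and 9.35 in untreated KO clones and 9.23 in untreated WT cells. Its difference of -0.38 ± 0.20 with LPS (95% interval -0.87 to 0.11) did not pass the test (adjusted p = 0.315), and it was dim in both groups. Fancc (-0.56 ± 0.27, adjusted p = 0.292) and Fancg (-0.61 ± 0.40, adjusted p = 0.428) did not pass either, and both were dim on all arrays. Where both groups were dim, a difference in RNA could go unseen.

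Msh6, a sensor of base mismatches, had 8.55 and 8.96 in KO clones and 11.26 in WT cells with LPS, against 11.02 and 10.88 in untreated KO clones and 11.54 in untreated WT cells. It was at least 3.53-fold lower in KO cells with LPS (-2.50 ± 0.24, adjusted p = 0.00276). The WT array with LPS lay above both clones, as it did for 40.1% of all genes.

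Checkpoint kinases signal damage to the cell cycle, and 3 of 4 were called lower in KO cells with LPS. Chek1, the effector kinase of stalled forks, had 10.32 and 10.75 in KO clones and 13.10 in WT cells with LPS, against 12.09 and 12.04 in untreated KO clones and 12.89 in untreated WT cells. It was 5.93-fold lower with LPS (-2.57 ± 0.24, adjusted p = 0.00244). Atm, the apical kinase for double-strand breaks, had 9.55 and 9.45 in KO clones and 10.78 in WT cells with LPS, against 10.59 and 10.24 in untreated KO clones and 10.78 in untreated WT cells, a 2.44-fold lower signal with LPS (-1.28 ± 0.22, adjusted p = 0.0195). Chek2, the kinase below ATM, had 8.10 and 8.21 in KO clones and 9.83 in WT cells with LPS, against 10.60 and 10.20 in untreated KO clones and 10.38 in untreated WT cells (-1.67 ± 0.24 with LPS, adjusted p = 0.00956, at least 1.31-fold lower). Atr, the apical kinase at stalled forks, was dim throughout and did not pass (-0.79 ± 0.24, adjusted p = 0.106).

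Excision repair genes had 1 of 6 called lower and a class median of -0.81 with LPS. Xrcc1, the scaffold for single-strand break ligation, had 8.63 and 8.87 in KO clones and 10.12 in WT cells with LPS, against 10.23 and 10.12 in untreated KO clones and 10.28 in untreated WT cells. It was at least 1.61-fold lower with LPS (-1.37 ± 0.20, adjusted p = 0.0116). Xpa and Xpc, which verify and sense bulky lesions in nucleotide excision repair, had WT signals between or just above those of the clones with LPS, and below both clones untreated. Xpa had 9.49 and 9.99 in KO clones and 9.94 in WT cells with LPS, against 10.14 and 10.60 in untreated KO clones and 10.01 in untreated WT cells. Xpc had 9.08 and 9.40 in KO clones and 9.48 in WT cells with LPS, against 9.83 and 9.97 in untreated KO clones and 9.26 in untreated WT cells. The difference with LPS was -0.20 ± 0.30 for Xpa (95% interval -0.94 to 0.55, adjusted p = 0.774) and -0.25 ± 0.22 for Xpc (-0.79 to 0.30, adjusted p = 0.578).

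The remaining excision genes pointed down without passing the test. Ung, the uracil glycosylase, was dim on all arrays, with 5.10 and 4.80 in KO clones and 5.71 in WT cells with LPS, against 6.0 and 5.66 in untreated KO clones and 6.26 in untreated WT cells (-0.76 ± 0.24 with LPS, adjusted p = 0.12). Ogg1, the 8-oxoguanine glycosylase, differed by -1.18 ± 0.30 (adjusted p = 0.066), and Ercc1, a subunit of the nuclease that cuts beside bulky lesions, by -0.87 ± 0.21 (adjusted p = 0.0521, dim on all arrays).

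Of the 4 end-joining genes, 2 were called lower in KO cells with LPS and the other 2 were dim in both groups. The genes of the Ku subunits, which load first onto broken ends, were the 2 called. Xrcc5 (Ku80) had 7.69 and 7.32 in KO clones and 9.66 in WT cells with LPS, against 7.72 and 7.15 in untreated KO clones and 9.61 in untreated WT cells. Xrcc6 (Ku70) had 8.34 and 8.33 in KO clones and 10.45 in WT cells with LPS, against 9.97 and 9.62 in untreated KO clones and 10.95 in untreated WT cells. With LPS the difference was -2.16 ± 0.30 for Xrcc5 (adjusted p = 0.00938, at least 1.17-fold lower) and -2.11 ± 0.22 for Xrcc6 (adjusted p = 0.00374, at least 2.02-fold lower). For Xrcc5 all 4 KO arrays were dim, whatever the treatment. Both WT arrays lay only a little above their background (9.12 with LPS and 9.21 untreated).

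Prkdc, the catalytic subunit that Ku recruits, was dim on all arrays, with 6.65 and 7.34 in KO clones and 8.12 in WT cells with LPS, against 8.63 and 8.14 in untreated KO clones and 8.20 in untreated WT cells (-1.12 ± 0.35 with LPS, adjusted p = 0.114). Lig4, the ligase that closes the break, was dim on all arrays and the only gene with a positive difference (0.34 ± 0.47, adjusted p = 0.741). Its LPS-treated clones differed by 1.21 on the log2 scale, more than for any other gene of the list.

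**Figure D2:**
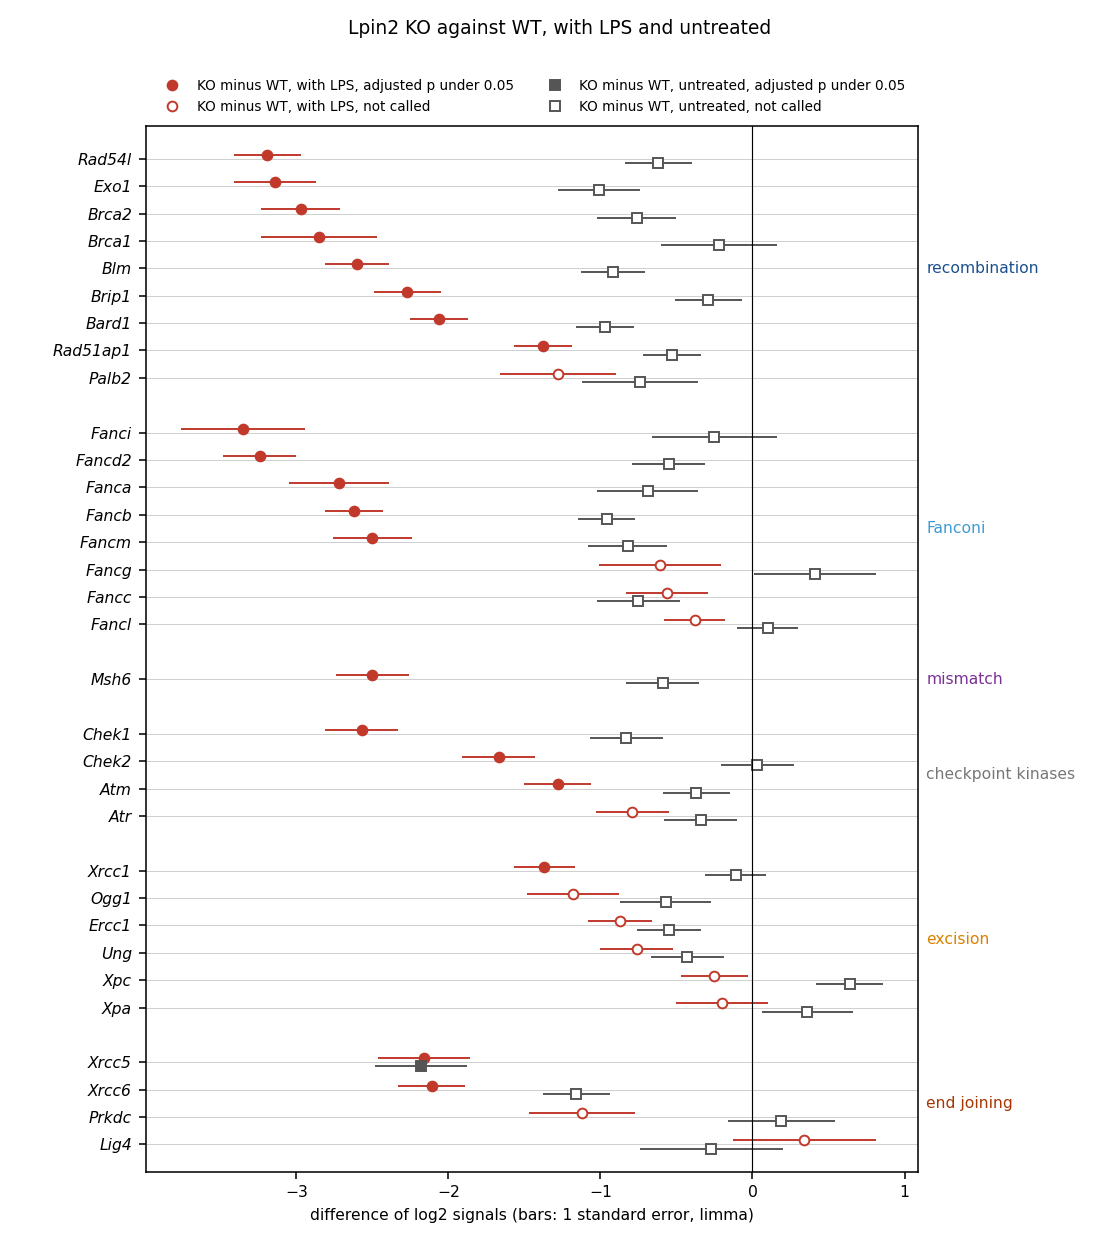
Differences of log2 signals, KO minus WT, for the 32 genes (rows), with LPS (circles) and untreated (squares). Bars are 1 standard error from limma, and filled symbols passed an adjusted p of 0.05, which untreated only Xrcc5 did (-2.18).

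The recombination and Fanconi genes were then set against the excision and end-joining genes, as a description without a test. With LPS, 13 of 17 were called lower in the first class and 3 of 10 in the second. The median difference, KO minus WT, was -2.60 for recombination and Fanconi genes and -0.99 for excision and end-joining genes, which leaves a gap of -1.60. The gap was -1.42 with clone #1 alone and -1.47 with clone #2 alone. It narrowed to -1.35 over the genes above background on at least 1 array and to -1.25 between class means. The classes overlapped, as Xrcc5 and Xrcc6 lay among the recombination genes and Fancc, Fancg and Fancl among the excision genes. With every dim signal set at the negative control percentile, which leaves no difference where both groups were dim (5 of 17 and 4 of 10), the medians shrank to -0.28 and -0.12.

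By level, the median signal of the recombination and Fanconi genes was 7.28 and 7.88 in KO clones and 9.71 in WT cells with LPS, against 9.31 and 9.33 in untreated KO clones and 9.70 in untreated WT cells. That of the excision and end-joining genes was 8.36 and 7.93 in KO clones and 9.57 in WT cells with LPS, against 9.08 and 8.61 in untreated KO clones and 9.44 in untreated WT cells. First class minus second, these medians differed by -1.07 and -0.05 in LPS-treated clones #1 and #2 and by 0.14 in WT cells. Untreated, the values were 0.23 and 0.72 in KO clones and 0.27 in WT cells. By level, the LPS-treated clones thus did not agree on the gap. Above background were 2 and 1 of 17 recombination and Fanconi genes in the LPS-treated clones and 12 in WT cells with LPS. Of 10 excision and end-joining genes, 1 was above background in each LPS-treated clone and 6 were in WT cells with LPS, so that both classes lost detection.

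**Figure D3:**
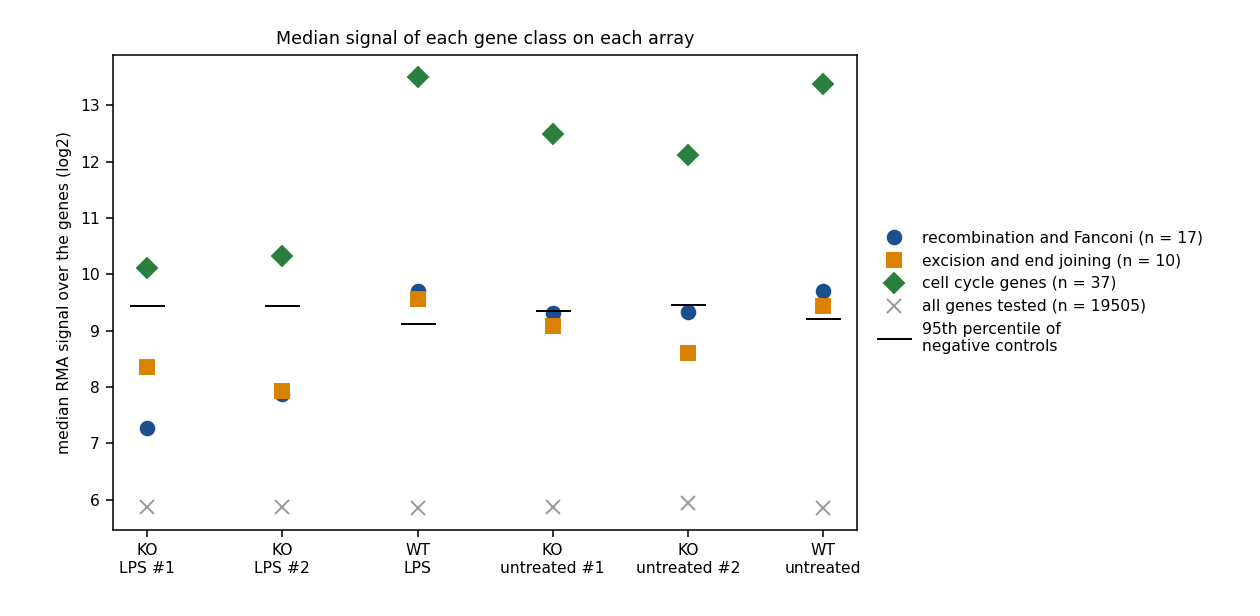
Median log2 signal of 4 gene lists on each array, with KO arrays left of the WT array for each treatment and the 95th percentile of the negative controls as a dash. All 3 lists of named genes were lowest on the 2 arrays of KO cells with LPS (7.28 and 7.88 for recombination and Fanconi genes, 8.36 and 7.93 for excision and end-joining genes), while the median of all genes stayed between 5.85 and 5.94.

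Cell cycle genes, a list chosen with earlier results of these data known, moved with the repair genes. Of 37 measured, 37 were called lower in KO cells with LPS, against 6.66% of all genes, with a median difference of -3.02. Their median signal was 10.11 and 10.33 in KO clones and 13.50 in WT cells with LPS, against 12.49 and 12.12 in untreated KO clones and 13.37 in untreated WT cells. Mybl2, a regulator of genes for S phase and mitosis, differed by -5.24 ± 0.39 (adjusted p = 0.0013), Rrm2, a ribonucleotide reductase subunit, by -4.69 ± 0.47 (adjusted p = 0.00312) and E2f8, an atypical E2F factor, by -4.46 ± 0.27 (adjusted p = 0.00105). Among macrophage markers, 2 of 9 were called higher in KO cells with LPS (Adgre1 by 1.97 and Ptprc by 1.29) and 0 lower, against 4.62% of all genes higher. Untreated, 3 of 9 were already called higher in KO cells (Adgre1 by 2.52, Csf1r by 1.25 and Itgam by 1.22) and 0 lower, against 2.16% of all genes higher. The part of the cell cycle genes in the repair result was not tested.

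Other genes of the same pathways were counted in the same comparison, in which 6.66% of all genes were called lower and 4.62% higher. Their lists held textbook members and were chosen with earlier results known. Of 43 other recombination and Fanconi genes, 29 were called lower, 7 of them dim in both groups, and 0 higher (median -1.61). They included Ube2t, the conjugating enzyme of the Fanconi complex (-3.52 ± 0.24, adjusted p = 0.00113), Fignl1 (-3.21 ± 0.21, adjusted p = 0.00109) and the recombination gene Xrcc3 (-3.20 ± 0.19, adjusted p = 0.00105). Of 33 other excision and mismatch genes, 10 were lower, 5 of them dim in both groups, and 0 higher (median -0.28), led by the glycosylase gene Neil3 (-3.51), the flap endonuclease gene Fen1 (-2.53) and Pms2 (-1.95). FEN1 also acts in replication. Of 7 other end-joining genes, all dim on every array, 0 were lower and Polm was called higher (0.81 ± 0.19, adjusted p = 0.0493), a call lost with the clone as a block. Of 24 other checkpoint and damage signaling genes, 16 were lower, 3 of them dim in both groups, and 0 higher (median -1.46), led by the CHK1 adaptor Clspn (-3.31), the kinase Wee1 (-3.17) and the histone gene H2ax (-2.51).

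**Figure D4:**
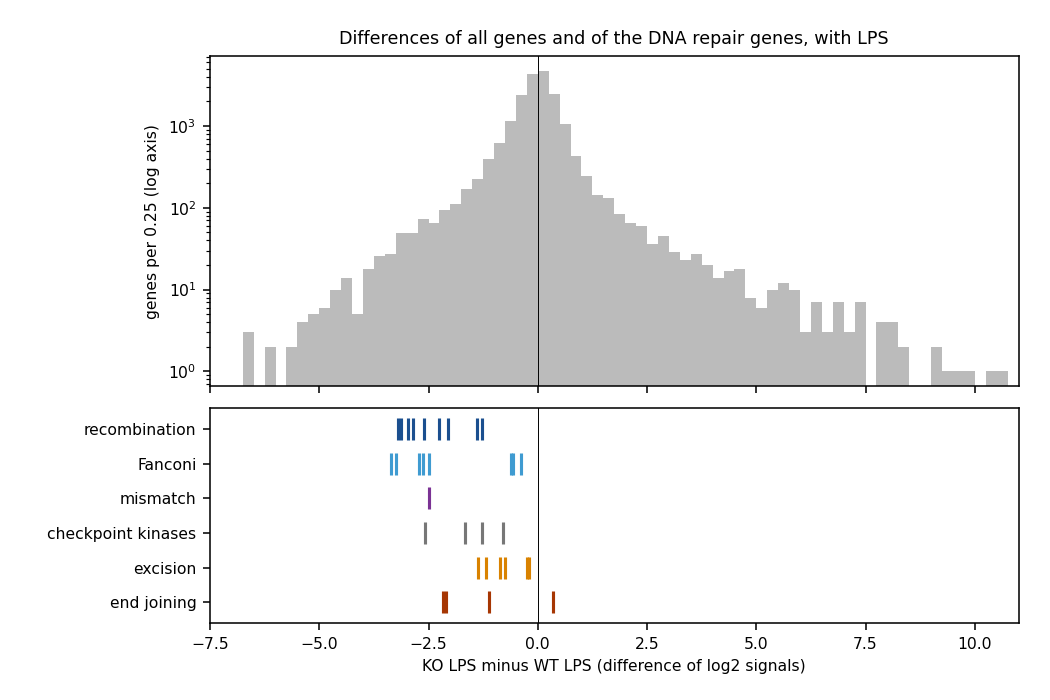
Top, number of genes of the array (log axis) by KO minus WT difference with LPS, in steps of 0.25 on the log2 scale. Below, the 32 repair genes by role, each a tick at its difference: recombination genes run from -3.19 to -1.28 and excision genes from -1.37 to -0.20.

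Without LPS, only Xrcc5 was called lower in untreated KO than in untreated WT cells and 0 were higher, against 2.14% of all genes lower and 2.16% higher. The median difference was -0.55, and over all genes 0.03. The WT array was still above both clones for 26 of the 32 (37% of all genes) and below both for Fancg, Fancl, Xpa and Xpc. The difference of Xrcc5 was -2.18 ± 0.30 (adjusted p = 0.0223, at least 1.16-fold lower). Without the untreated array of clone #2, Xrcc5 did not pass and no gene of the list did. Next came Xrcc6 (-1.16 ± 0.22, adjusted p = 0.0503), Bard1 (-0.97 ± 0.19, adjusted p = 0.0506) and Fancb (-0.96 ± 0.19, adjusted p = 0.0534). With the clone as a block, 4 were called (Xrcc5, Xrcc6, Bard1 and Exo1). That fit takes the difference between clones out of the error, although the clones are the only replicates of the genotype. Cell cycle genes had a median difference of -0.78 in untreated cells, with 3 of 37 called lower.

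Most of the repair genes fell with LPS in KO cells. With LPS, 23 of the 32 were called lower than in untreated KO cells and 0 higher, against 9.80% of all genes lower and 6.84% higher. The median change, LPS minus untreated, was -1.41, and -0.03 over all genes. Both clones fell for 28 of the 32, against 37.7% of all genes. The called genes were 15 of 17 recombination and Fanconi genes (median -1.63), 4 of 10 excision and end-joining genes (Ung, Xrcc1, Xrcc6 and Prkdc, class median -0.67), 3 of 4 checkpoint kinases and Msh6. With the clone as a block, 24 were called, of which 14 of 17 recombination and Fanconi genes (without Fancl) and 6 of 10 excision and end-joining genes (with Xpa and Xpc). Of the 23, 9 were dim in both groups. The largest changes were Fanci (-3.14 ± 0.34, adjusted p = 0.00272, dim in both groups), Brca1 (-2.75 ± 0.31, adjusted p = 0.00309, at least 1.79-fold lower) and Fancd2 (-2.52 ± 0.19, adjusted p = 0.000882, at least 1.23-fold lower). Above background on all arrays, Brip1 was 3.70-fold, Chek1 2.89-fold and Atm 1.88-fold lower with LPS. Blm, above background with LPS in clone #1 only, was 3.10-fold lower. Xrcc5 changed by 0.07 ± 0.25 (95% interval -0.54 to 0.68, adjusted p = 0.899).

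In WT cells, no repair gene passed the test for LPS. By limma, 0 of the 32 were called lower and 0 higher, beside 0% of all genes lower and 0% higher, and at an unadjusted p under 0.05 the list still had 0 genes and the array 658 (3.37%). The changes ran from -0.68 (Lig4) to 0.54 (Fanca and Ercc1), and 26 of 32 were smaller than 0.5 in size. The median was -0.07, with 18 negative. This comparison rests on 1 array against 1. The 95% interval was -0.54 to 0.69 for Rad54l, -1.2 to 0.95 for Brca1 and -2.02 to 0.67 for Lig4. After adjustment over all genes, larger changes than these could be missed. Cxcl2, for example, was higher by 2.48 with LPS in WT cells and did not pass.

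**Figure D5:**
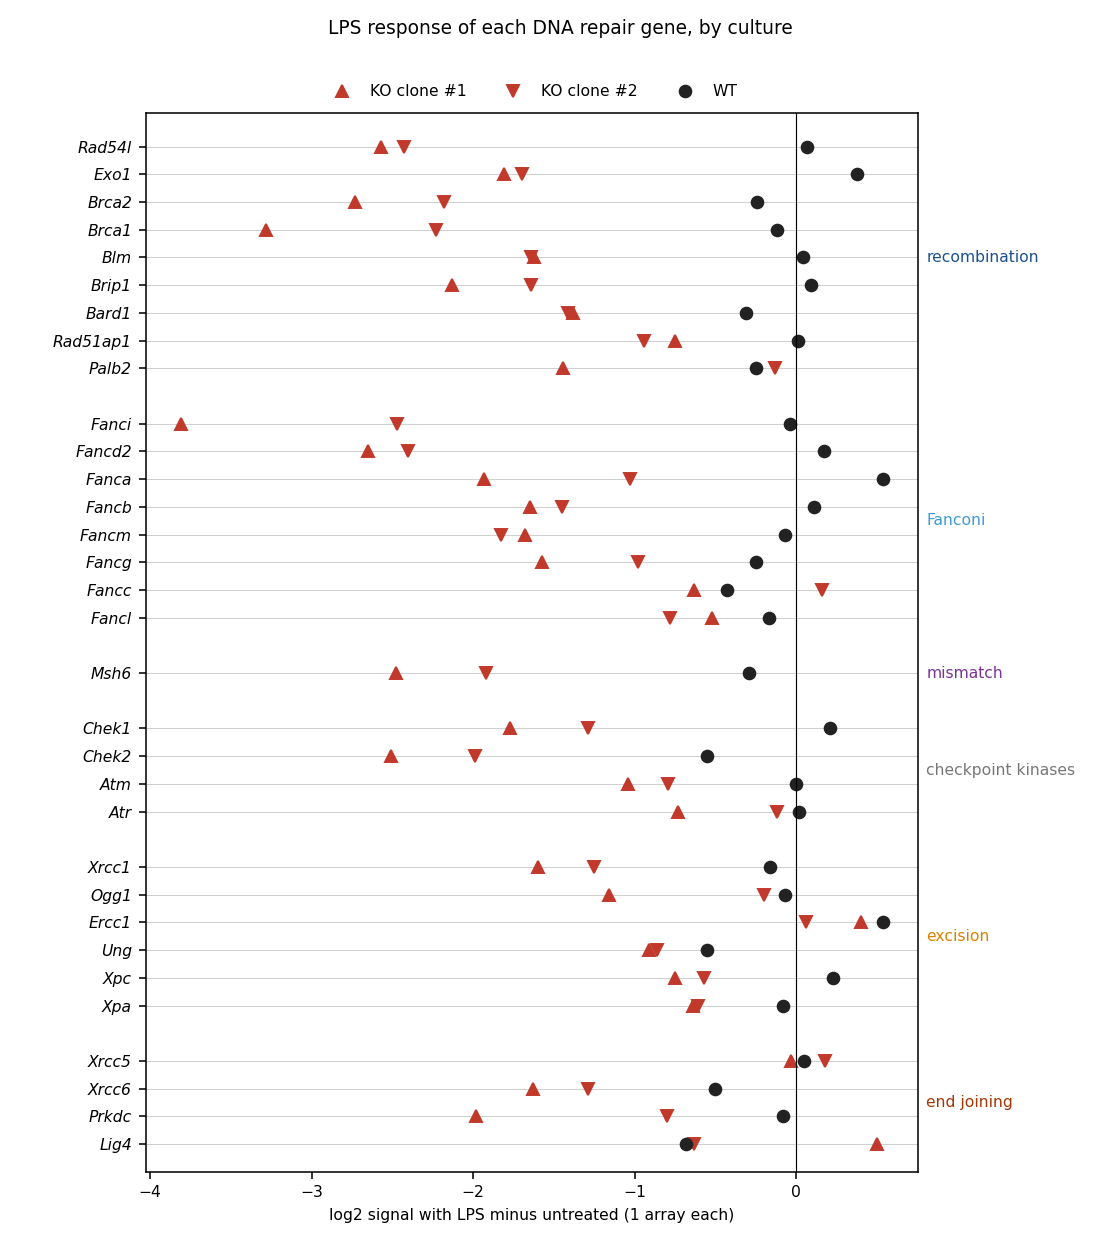
Change of log2 signal with LPS (LPS minus untreated, 1 array each) for the 32 genes in KO clones #1 and #2 (triangles) and in WT cells (circles). WT points lie between -0.68 and 0.54, while in the clones Rad54l changed by -2.57 and -2.43 and Xrcc5 by -0.03 and 0.18.

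The difference between the LPS responses of KO and WT cells was tested directly. It was called for 7 of the 32, all with a more negative change in KO cells, and 0 the other way, against 1.86% of all genes lower and 1.43% higher. The median over the list was -1.17, and -0.04 over all genes. Fancd2 (-2.69 ± 0.33, adjusted p = 0.0185), Rad54l (-2.57 ± 0.31, adjusted p = 0.0165), Brca2 (-2.21 ± 0.37, adjusted p = 0.0416) and Brip1 (-1.97 ± 0.31, adjusted p = 0.0353) were followed by Msh6, Blm and Fancb. By class, 6 of 17 recombination and Fanconi genes were called, 0 of 10 excision and end-joining genes, 0 of 4 checkpoint kinases and Msh6. The WT response in this test rests on 1 array per treatment, and only the untreated WT array was labeled as summarized at the gene level. The 10 LPS-induced genes changed by a median of 0.82 in WT and 5.58 in KO cells. All of them were already higher in untreated WT cells than in both untreated clones. The count of 7 depended on single arrays. It was 0 without the untreated array of clone #1, 1 without that of clone #2, 10 without LPS-treated clone #1, 12 without LPS-treated clone #2 and 14 with the clone as a block. For Xrcc5 the responses differed by 0.02 ± 0.43 (95% interval -1.03 to 1.08, adjusted p = 0.987).

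The KO clones were alike for most of the list. Their signals differed by a median of 0.33 with LPS and 0.26 untreated. Clone #2 was the higher for 18 of the 32 with LPS and for 6 untreated. Among the 20 genes called with LPS the SD between clones was under 0.5 for 17. As the clones set the error of the test, a small SD favors a call, so this count is no separate check. Fanci, Brca1 and Fanca were the exceptions, lower in clone #1 than in clone #2 by 0.96, 0.91 and 0.76 with LPS.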

How the data were processed

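Total RNA of 6 RAW-D cultures (KO clones #1 and #2 and WT cells, each with LPS or untreated) was hybridized to mouse Clariom S arrays. The deposited values are log2 signals that the authors made with RMA in Expression Console (background correction, quantile normalization, probe summary), of unstated version. Of 28846 values per array, 19572 belong to probe sets with a symbol in the array's annotation, which gave 19505 genes. There were 0 unused columns. Groups were taken from the labels and compared with limma 3.58.1 in R 4.3.3 (1 mean per group, 2 residual and 3.83 prior degrees of freedom, two-sided, Benjamini-Hochberg over all genes, threshold 0.05). A dim signal was set at the 95th percentile of 5222 negative control probes of its array for fold bounds. Deviations of a clone from its group mean correlated at 0.222 across genes between treatments, and each clone was measured in both, so clone numbers pair the arrays. The unblocked fit was kept as main, since the paper states no test for the arrays. It sets the pairing aside. With the clone as a block, 24 genes of the list were called for LPS in KO cells and 14 for the difference between responses. In comparisons of KO with WT cells, the block takes the difference between clones out of the error. The methods' t-test, other normalizations, filters, moderation and left-out arrays were alternatives.

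The genes, role classes and other lists were chosen with earlier results of these data known. Genes given in full are, per class, the 4 with the largest differences with LPS among those called in any comparison, the 2 with the smallest among those not dim on every array, and all called for the difference between responses. Up to 3 called genes were named per other list. The genes used to check the LPS label, and the 40-base stretches, were added after their values were seen. Promoters came from a RefSeq table, and 28 of 32 genes matched by symbol. The steps were tested on simulated data. The precision is limited by the number of arrays.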

Additional observations from a re-analysis of the deposited data

Results flagged for a closer look

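By a test of the difference itself, the LPS responses of KO and WT cells were called different for 7 repair genes. Each had a more negative change in KO cells. Over all genes, 1.86% were called lower and 1.43% higher. At an adjusted p under 0.01 no repair gene passed, and the count depended on single arrays. The WT response itself rests on 1 array per treatment. Genes known to be induced by LPS were already higher in untreated WT cells than in untreated KO cells. The difference of the changes on the log2 scale was -2.69 for Fancd2, -2.57 for Rad54l, -2.21 for Brca2, -1.97 for Brip1, -1.91 for Msh6, -1.68 for Blm and -1.66 for Fancb, with limma adjusted p from 0.0165 (Rad54l) to 0.0481 (Msh6). In each of them both clones fell with LPS, and the change in WT cells lay between -0.29 (Msh6) and 0.17 (Fancd2). The cell cycle list changed alongside, with 25 of 37 called for the same difference.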

How the results depend on the processing

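No repair gene called lower in KO cells with LPS lost its call in the 16 other limma settings at 0.05 that kept the gene. Several of these were not separate checks. Each repair gene had 1 probe set, so averaging probe sets left its values as they were. Leaving out either untreated KO array, or fitting the LPS arrays alone, left only the LPS-treated clones to set the error. Those fits repeated each other. The methods' t-test, on 2 arrays against 1, gave 9 before and 0 after Benjamini-Hochberg. The untreated count of 1 was 4 with the clone as a replicate block, 2 after renewed quantile normalization, 4 and 2 with arrays centred on genes or negative controls, 5 and 4 for genes above background on at least 1 or 3 arrays, 2 with an intensity trend, 3 with robust moderation, 2 for the 3 arrays alone, 0 at 0.01, 3 by 2-fold alone, 4 and 0 by the t-test, and 0 to 2 with an array left out. The LPS count in KO cells (23) was 15 for genes above background on at least 3 arrays, 0 by the adjusted t-test and 16 to 21 with an array left out. In WT cells it stayed at 0 in all settings run. The count of 7 for the difference between responses was 14 with the block, 12 centred on negative controls, 14 and 12 with the background filters, 11 with the trend, 0 at 0.01, 18 by 2-fold alone and 0 to 12 with an array left out. The gap between classes (-1.60) was -1.54 after quantile normalization, -1.25 between means, -1.35 for genes above background and -1.60 to -1.42 with an array left out. Without KO LPS replicate 1, Lig4 (-0.26) and Xpa (0.05) changed sign, and without KO LPS replicate 2 they were 0.95 and -0.44. Causes were not tested. The t-test could not be computed for LPS in WT cells or for the difference between responses, nor could the fit of 3 arrays alone. Leaving out the untreated WT array, chosen after seeing the data, could not change the 20 and 23 calls. That array enters neither comparison, and a group of 1 array adds nothing to the error.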

Other observations

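Targets of p53, which DNA damage is known to induce, were called in both directions, unlike the repair genes. This list, too, was chosen with earlier results known. With LPS, 4 of 23 were called higher and 1 lower in KO than in WT cells, against 4.62% of all genes higher and 6.66% lower, and the median difference was 0.17. Gadd45b, a stress-response gene that NF-κB also induces, had log2 signals of 12.89 and 12.32 in KO clones and 8.71 in WT cells with LPS, at least 11.2-fold higher in KO cells (adjusted p = 0.0012). Fas, the death receptor gene, had 10.86 and 11.24 in KO clones and 7.45 in WT cells with LPS, at least 3.82-fold higher (adjusted p = 0.00132). Mdm2, the p53 ubiquitin ligase gene, was 3.24-fold higher (1.70 ± 0.19, adjusted p = 0.00466), with 15.70 and 15.58 in KO clones and 13.94 in WT cells. Plk2 was called higher while dim in both groups. Of the 23, 12 were dim in both groups. Cdkn1a did not pass (0.75 ± 0.34, adjusted p = 0.25). Between KO cells with LPS and untreated KO cells, 5 of the 23 were called higher and 6 lower with LPS. Over all genes, 6.84% were called higher and 9.80% lower in that comparison. Ckap2, a spindle protein gene on the same list, was 4.10-fold lower in KO than in WT cells with LPS (-2.03 ± 0.22, adjusted p = 0.00441).

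The untreated WT array was already above both untreated clones for all 10 of the LPS-induced genes. Cxcl2 had 17.65 and 17.71 in KO clones and 13.53 in WT cells with LPS, against 5.87 and 6.0 in untreated KO clones and 11.05 in untreated WT cells. Tnf had 17.56 and 17.44 in KO clones and 16.41 in WT cells with LPS, against 14.07 and 14.05 in untreated KO clones and 16.18 in untreated WT cells.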
